A study of Homo sapiens with 15 samples.

Results

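The genes described are 10 immune checkpoint and evasion genes of the cell surface, among 20468 genes with a value in 2 human myeloma cell lines. They were chosen by gene symbol, and CD274, CD276, LGALS9, TNFRSF14, PVR, MICA, MICB, CD47, CD55 and CD59 were all found in both tables. RNA-seq had been made of MM.1S and RPMI8226, established lines of malignant plasma cells, grown with or without HS5, an established line of bone marrow stromal cells. MONO libraries came from myeloma cells grown alone. TSW libraries came from myeloma cells in the upper chamber of a transwell, which shares its medium with a well holding HS5 and myeloma cells but keeps the chambers apart. CO libraries came from myeloma cells of that lower well, where they touched HS5. MM.1S had 3 libraries in each condition and RPMI8226 had 2, which makes 15. Cells were sorted for live CD90- CD38+ cells before RNA was taken, and cells from coculture were also treated with trypsin, so that step and the condition cannot be told apart. The labels give each library a repeat number and do not say whether repeats were separate cultures, so the p-values measure only the spread between these libraries. Each line is also 1 genotype, so the values describe these lines.

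Expression is given as RPKM, in which the read pairs of a gene (pair-end tags, PETs) are scaled to its exon length and to the depth of the library, so levels may be compared between genes. Between 9008977 and 19050772 PETs per library were recovered from the values, and 1 PET on a transcript of 2 kb equalled an RPKM between 0.0262 and 0.0555. A change is called here at an adjusted p under 0.05 from limma and a fold change over 1.5 on log2(RPKM + 1), a scale that understates the fold change of genes near an RPKM of 1 or lower. Some libraries stood apart from the others of their line. MONO 1 of MM.1S had the lowest depth. It was set against the mean of the other MONO libraries, with genes in 4 equal groups by length. Its median gene was higher by 0.27 (log2) in the shortest group and lower, at -0.35, in the longest. Its mean Euclidean distance to the other MONO libraries, over log2(RPKM + 1) of all tested genes, was 43.8, against 34.9 and 35.0 for MONO 2 and MONO 3. RPS14P3, a ribosomal protein pseudogene, had an RPKM of 84.3 in MONO 2 of MM.1S and of 94.8 and 93.6 in the TSW libraries of RPMI8226, and between 2.20 and 6.44 in the other libraries. Member results that lose or gain a call without MONO 1 or MONO 2 of MM.1S are given with and without them, while no TSW value of RPMI8226 could be had without its only TSW libraries.

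Immune checkpoints are pairs of surface proteins through which a cell dampens T cells and natural killer (NK) cells that meet it. PD-L1, made from CD274, binds PD-1 on T cells, and interferon signalling through JAK and STAT proteins is its best known inducer. Other surface proteins act on other arms of immunity: CD47 restrains phagocytosis, MICA and MICB are stress ligands that arouse NK cells, and CD55 and CD59 shield a cell from complement, as they do on blood and plasma cells. The values are of mRNA in bulk samples, in which fewer cells that express a gene and less RNA per cell cannot be told apart, and surface protein was not measured.

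In monoculture, the members differed widely in level. In MM.1S MONO the mean RPKM was 81.6 for CD59, 31.4 for CD47 and 19.4 for MICB. Next came CD55 at 8.86, PVR at 8.30 and CD276 at 7.38. The library range of PVR (6.91 to 9.61) overlapped those of CD55 (8.20 to 9.49) and CD276 (6.94 to 7.87), which lay apart from each other. TNFRSF14 stood at 4.94, MICA at 2.78, CD274 at 0.523 and LGALS9 at 0.00776. In RPMI8226 MONO, CD47 led with a mean RPKM of 30.4, next to CD59 at 29.2, and their ranges overlapped (28.4 to 32.4 and 29.16 to 29.17). MICB followed at 12.2, CD55 at 5.63 and MICA at 4.48, while TNFRSF14 at 3.38, PVR at 3.32 and CD276 at 3.27 lay within their spread. CD274 at 0.676 and LGALS9 at 0.333 were again the lowest. Both lines thus held much CD59 and CD47 mRNA and little CD274 mRNA when grown alone.

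**Figure D1:**
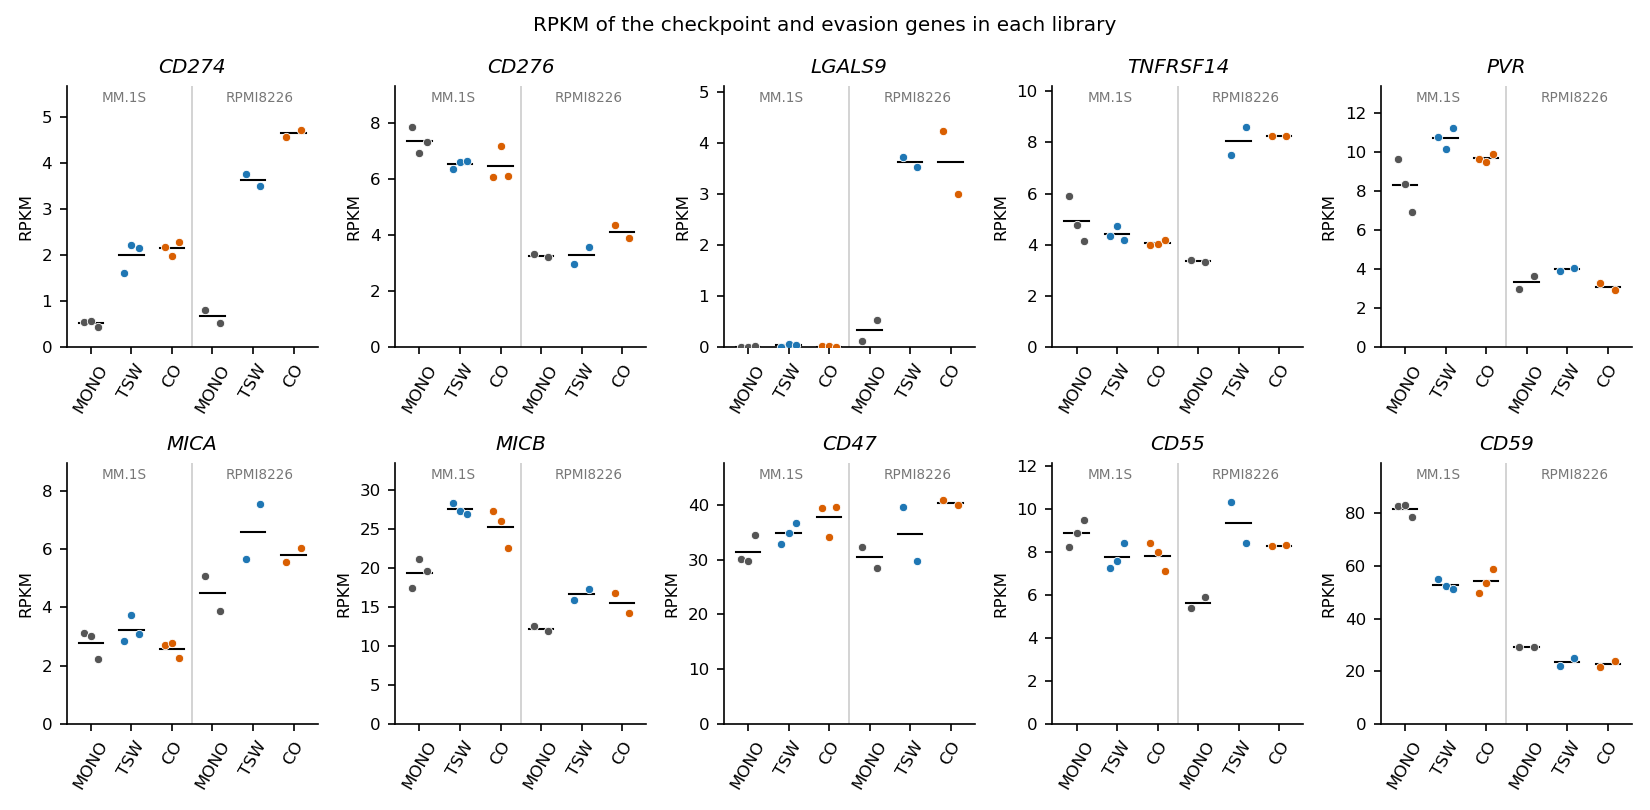
RPKM (linear axis from 0) of each member in each library, grouped by cell line and by MONO (grey), TSW (blue) and CO (orange); points are libraries and bars are means. CD274 lies between 0.436 and 0.821 in the MONO libraries and between 1.62 and 4.72 in the TSW and CO libraries, and CD59 of MM.1S between 78.7 and 83.2 in MONO against 49.9 to 58.7 in TSW and CO.

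The comparison of TSW with MONO asks what changes in myeloma cells that share medium with stroma, CO with MONO adds contact, and CO with TSW sets contact against shared medium alone. TSW and CO are compared with the same MONO libraries, so these comparisons are not independent, and their values are set side by side. Members averaging at least 1 RPKM over the libraries of a line were tested, which left 9 in MM.1S and 10 in RPMI8226. In MM.1S, 2 of 9 members were called in TSW vs MONO, CD274 higher and CD59 lower, where 10.6% of 10153 tested genes were called (6.48% higher and 4.16% lower). In MM.1S CO vs MONO it was again CD274 higher and CD59 lower, where 11.8% of tested genes were called (7.13% higher and 4.65% lower). In RPMI8226, 4 of 10 were called in TSW vs MONO, all higher (CD274, LGALS9, TNFRSF14 and CD55), where 32.5% of 10319 tested genes were called (14.5% higher and 17.9% lower). In RPMI8226 CO vs MONO, 3 of 10 were called, all higher (CD274, LGALS9 and TNFRSF14), where 39.3% of tested genes were called (16.4% higher and 22.9% lower). No member was called lower in RPMI8226, and the members were not tested as a group against other genes.

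By adjusted p alone, 4 members passed in MM.1S TSW vs MONO, where 27.3% of all tested genes did, and 3 in CO vs MONO, where 31.3% did. In RPMI8226 it was 7 in TSW vs MONO beside 67.1% of all genes, and 8 in CO vs MONO beside 71.9%. The median log2 fold change of the tested members was 0.14 in MM.1S TSW vs MONO and -0.07 in CO vs MONO, against 0.014 and 0.005 over all tested genes. In RPMI8226 it was 0.44 and 0.36, against -0.08 and -0.09 over all tested genes. CD274 in both lines and LGALS9 in RPMI8226 passed the filter only through TSW and CO, where they are high, so these counts and medians describe the tested members and support nothing further.

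**Figure D2:**
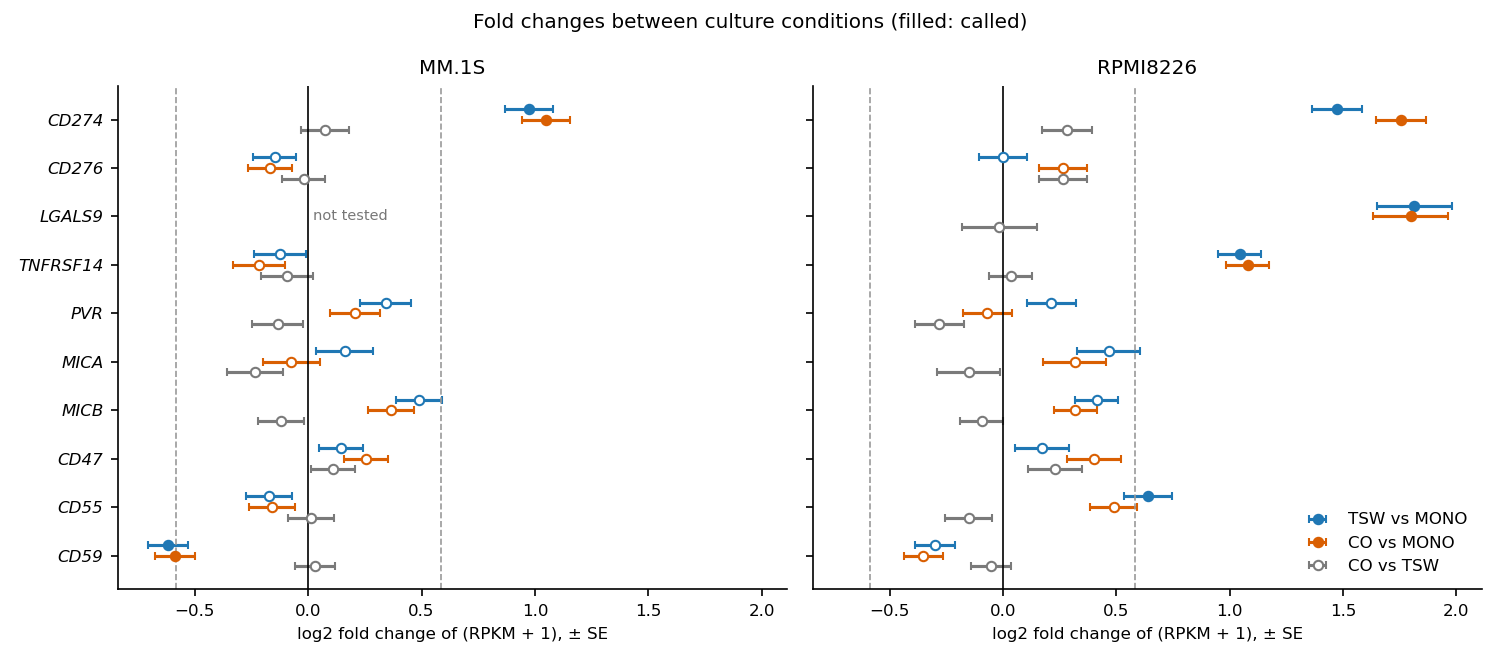
Log2 fold change of RPKM + 1 (horizontal axis) of each member in MM.1S (left) and RPMI8226 (right); points are estimates, bars are standard errors, filled points are called and dashed lines mark a fold change of 1.5. CD274 lies right of the dashed line in both lines (0.98 and 1.05 in MM.1S, 1.47 and 1.76 in RPMI8226), CD59 left of it in MM.1S (-0.62 and -0.59), and LGALS9, TNFRSF14 and, in TSW, CD55 right of it in RPMI8226.

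CD274 (Entrez 29126, chr9:5450542-5470554 on the + strand of GRCh38) was the member called higher in both lines. In MM.1S its RPKM was 0.554, 0.579 and 0.436 in MONO, 1.62, 2.23 and 2.16 in TSW, and 2.19, 1.99 and 2.28 in CO. All 6 libraries with stroma lay above all 3 MONO libraries, and TSW and CO overlapped. The mean of 0.523 ± 0.0766 in MONO (SD, n = 3) was 2.003 ± 0.333 in TSW (n = 3), a ratio of 3.83. On the log2(RPKM + 1) scale CD274 rose by 0.98 ± 0.11 (standard error; 95% interval 0.74 to 1.21; adjusted p = 7.96e-05) in TSW. In CO its mean was 2.15 ± 0.15 (SD, n = 3), a ratio of 4.11, and it rose by 1.05 ± 0.11 (0.82 to 1.28; adjusted p = 4.25e-05). These levels rest on 83 PETs over the MONO libraries, 325 over TSW and 370 over CO.

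In RPMI8226, the RPKM of CD274 was 0.821 and 0.532 in MONO, 3.77 and 3.52 in TSW, and 4.57 and 4.72 in CO. No range overlapped another, so MONO was lowest, TSW between and CO highest. From 0.676 ± 0.204 in MONO (SD, n = 2), the mean was 3.64 ± 0.179 in TSW (n = 2), a ratio of 5.38, with a rise of 1.47 ± 0.11 on the log2 scale (1.23 to 1.72; adjusted p = 1.26e-06). In CO the mean was 4.65 ± 0.108 (SD, n = 2), a ratio of 6.87, with a rise of 1.76 ± 0.11 (1.511 to 2.004; adjusted p = 2.55e-07). Between CO and TSW the log2 difference was 0.28 ± 0.11 (0.04 to 0.53; adjusted p = 0.0827), which was not called. With a pseudocount of 0.1 in place of 1, which compresses low values less, the log2 fold changes of CD274 were 1.75 and 1.86 in MM.1S (TSW and CO) and 2.29 and 2.64 in RPMI8226. CD274 was called under each alternative that tested it, 19 in each comparison of MM.1S and 16 in each of RPMI8226. Of these, dropping the fold threshold cannot lose a call. No filter, a replicate block, no trend and only the conditions compared left its estimate unchanged. With an RPKM under 1 in all MONO libraries, CD274 entered most alternatives through TSW and CO. Without an expression filter its adjusted p was 0.000374 and 0.000162 in MM.1S and 0.000385 and 0.000161 in RPMI8226.

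Promoters of the 4 members called higher in at least 1 comparison of RPMI8226 are shown because interferon-linked factors have known DNA letters that can be looked up in them. They are RefSeq sequences of GRCh38.p14, from 250 bases before to 50 bases after a gene start, and all 10 members have an entry. The entries of TNFRSF14, MICA, MICB and CD276 are set at starts inside the gene coordinates given with each member, and sequence at their outermost starts was not searched. Capitals mark matches, on either strand, to STAT (TTCNNNGAA), IRF (GAAANNGAA), AP-1 (TGANTCA) or NF-kappaB (GGNNTTTCC) motifs.
CD274, chr9:5450292-5450591 (+ strand): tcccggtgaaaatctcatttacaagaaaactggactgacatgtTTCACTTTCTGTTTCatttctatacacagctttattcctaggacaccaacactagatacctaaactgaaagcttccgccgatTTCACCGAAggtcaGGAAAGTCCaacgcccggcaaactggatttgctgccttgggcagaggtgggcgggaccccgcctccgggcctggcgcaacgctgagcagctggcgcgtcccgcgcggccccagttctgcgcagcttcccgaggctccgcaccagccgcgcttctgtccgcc
LGALS9, chr17:27630938-27631237 (+ strand): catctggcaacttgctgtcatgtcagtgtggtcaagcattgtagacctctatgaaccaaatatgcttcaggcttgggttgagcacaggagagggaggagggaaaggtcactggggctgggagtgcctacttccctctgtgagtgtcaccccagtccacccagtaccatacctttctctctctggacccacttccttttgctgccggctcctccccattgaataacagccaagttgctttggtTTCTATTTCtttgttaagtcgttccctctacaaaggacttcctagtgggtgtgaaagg
TNFRSF14, chr1:2556121-2556420 (+ strand): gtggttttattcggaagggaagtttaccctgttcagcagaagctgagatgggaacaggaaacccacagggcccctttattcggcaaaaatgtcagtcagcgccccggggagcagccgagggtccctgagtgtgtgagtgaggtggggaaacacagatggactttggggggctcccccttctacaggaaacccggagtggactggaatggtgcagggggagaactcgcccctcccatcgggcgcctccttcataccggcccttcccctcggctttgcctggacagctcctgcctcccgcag
CD55, chr1:207321428-207321727 (+ strand): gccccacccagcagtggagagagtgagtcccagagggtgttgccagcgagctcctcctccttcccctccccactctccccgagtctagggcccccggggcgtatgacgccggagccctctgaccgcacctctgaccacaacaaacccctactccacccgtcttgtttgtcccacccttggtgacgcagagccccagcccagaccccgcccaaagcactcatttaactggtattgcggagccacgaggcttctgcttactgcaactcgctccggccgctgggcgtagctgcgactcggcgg
CD274 held 2 overlapping IRF matches, first bases at -207 and -201 from the gene start, a STAT match at -125 and an NF-kappaB match at -111. LGALS9 held 1 IRF match, at -8. TNFRSF14 and CD55 held none of these letters in the windows printed. Among all 35116 promoters of the table, 7.66% held a STAT match, 8.11% an IRF match, 7.71% an AP-1 match and 6.26% an NF-kappaB match. Of the other members, CD59 held STAT and AP-1 matches and CD276 an NF-kappaB match in at least 1 of their entries, so that 2 of 10 members held STAT, 2 IRF, 1 AP-1 and 2 NF-kappaB matches. A match describes letters only, and binding of any factor was not measured.

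By the rule set for likeness, the genes nearest to CD274 over its 4 log2 fold changes from MONO, among 9396 genes tested in both lines, were GPRIN3, SLC9A9 and DTX3L. Their root mean square differences from CD274 were 0.045, 0.069 and 0.110. GPRIN3 had log2 fold changes of 0.90 and 1.02 in MM.1S (TSW and CO) and 1.44 and 1.73 in RPMI8226. SLC9A9, a sodium-proton exchanger, had 0.92 and 0.99 in MM.1S and 1.53 and 1.85 in RPMI8226. DTX3L, a ubiquitin ligase, had 1.002 and 1.26 in MM.1S and 1.497 and 1.71 in RPMI8226. The CD274 comparisons share MONO libraries, as do those of these genes.

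PDCD1LG2, which makes PD-L2, the other ligand of PD-1, is the next protein-coding gene to CD274 on chromosome 9 (chr9:5510531-5571282). Its RPKM in MM.1S was 0.986, 1.46 and 1.46 in MONO, 2.69, 2.84 and 4.22 in TSW, and 3.11, 2.34 and 3.39 in CO. In RPMI8226 it was 0.356 and 0.218 in MONO, 2.55 and 1.67 in TSW, and 1.96 and 2.39 in CO. All libraries with stroma lay above all MONO libraries of their line. PDCD1LG2 rose by 0.87 ± 0.16 and 0.78 ± 0.16 on the log2 scale in MM.1S TSW and CO (adjusted p = 0.00245 and 0.00458) and by 1.26 ± 0.15 and 1.30 ± 0.15 in RPMI8226 (2.89e-05 and 1.73e-05), where it passed the filter only through TSW and CO. JAK2, the kinase behind the interferon-gamma receptor, lies on the same chromosome with 5 protein-coding genes between it and CD274. It was called higher in RPMI8226 CO vs MONO (0.88 ± 0.11, adjusted p = 4.32e-05) and in none of the other comparisons with MONO.

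Of 11 genes listed for induction and stability of PD-L1, 10 were tested in each line. In MM.1S TSW vs MONO 4 were called higher and 1 lower (6.48% and 4.16% of all tested genes), and in CO vs MONO 4 higher and 0 lower (7.13% and 4.65%). In RPMI8226 it was 5 higher and 0 lower in TSW vs MONO (14.5% and 17.9% of all tested genes), and 6 higher and 0 lower in CO vs MONO (16.4% and 22.9%). Their median log2 fold changes were 0.37 and 0.45 in MM.1S (TSW and CO) and 0.79 and 1.003 in RPMI8226, against 0.014 and 0.005, and -0.08 and -0.09, over all tested genes.

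IRF9, a part of the complex that answers type I interferon, spanned 2.45 to 2.88 RPKM in MM.1S MONO, 4.90 to 7.17 in TSW and 6.10 to 7.11 in CO. In RPMI8226 IRF9 spanned 2.44 to 2.78 in MONO, 26.7 to 30.1 in TSW and 25.4 to 28.5 in CO. It was called higher in all 4 comparisons with MONO, by 0.91 and 1.04 in MM.1S and 3.03 and 2.95 in RPMI8226.

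STAT3, which carries signals of interleukin-6 family receptors, rose by 1.47 ± 0.08 and 1.35 ± 0.08 in MM.1S TSW and CO (adjusted p = 4.47e-07 and 5.18e-07) and by 1.68 ± 0.07 and 1.57 ± 0.07 in RPMI8226 (1.53e-08 and 1.8e-08). IRF1, a direct activator of the CD274 promoter in many cells, was called in RPMI8226 (1.35 and 1.36), and in MM.1S its log2 fold changes of 0.35 and 0.48 had adjusted p-values of 0.0175 and 0.00337 and lay under the fold threshold. Whether IRF1 differed between the lines was not tested. CMTM6, which keeps PD-L1 protein from degradation, was the gene called lower in MM.1S TSW (-0.60 ± 0.12, adjusted p = 0.00402). CD274 mRNA rose in that comparison, and the amount of PD-L1 protein was not measured. In MM.1S CO, CMTM6 stood at 30.46 to 36.24 RPKM, below its 39.22 to 47.42 in MONO, and was not called lower. In RPMI8226 its RPKM was 44.21 and 40.35 in MONO, 43.48 and 39.52 in TSW, and higher, at 58.17 and 57.44, in CO.

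**Figure D3:**
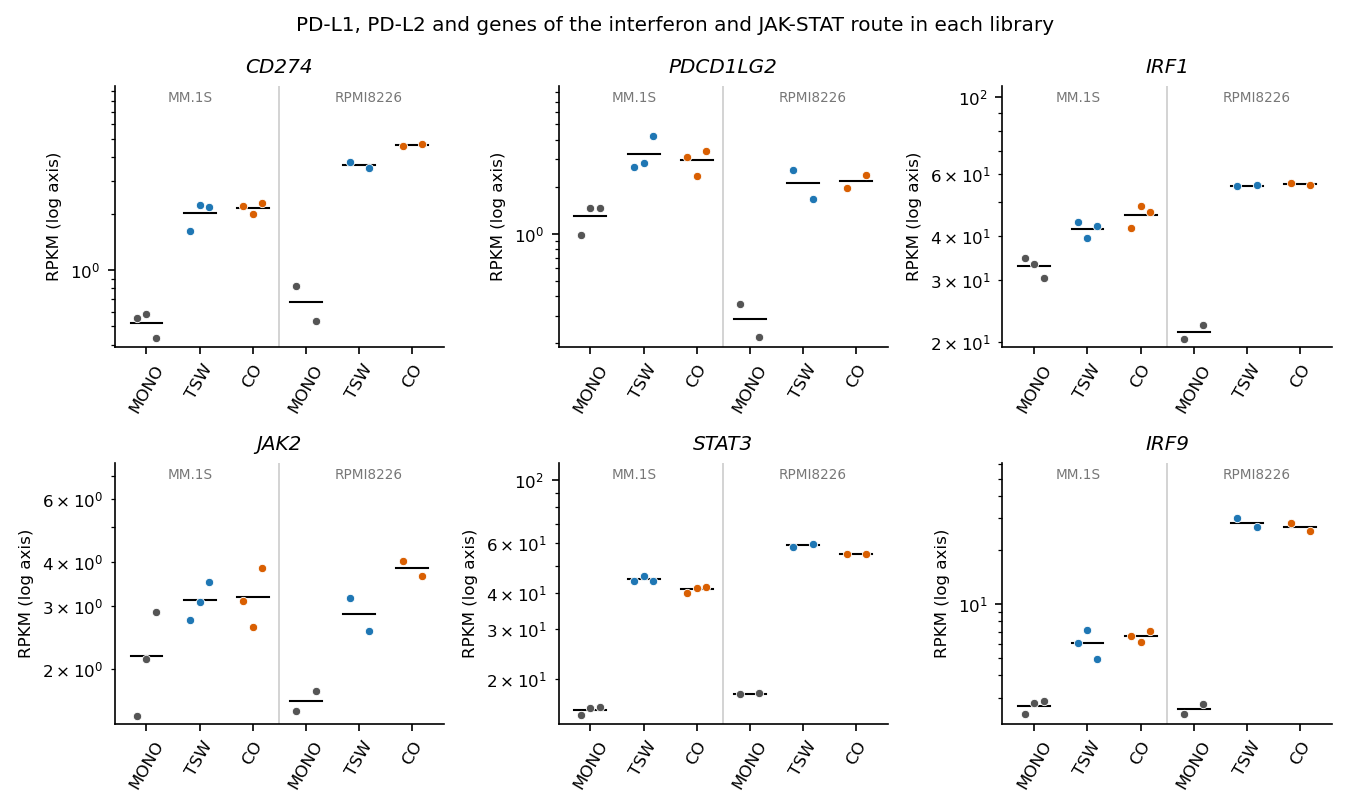
RPKM on log axes of CD274, PDCD1LG2 and genes of the interferon and JAK-STAT route in each library, with bars at the means of MONO, TSW and CO in each line. IRF9 spans 2.45 to 2.88 in MM.1S MONO and 26.7 to 30.1 in RPMI8226 TSW, and in both lines all TSW and CO points of CD274, PDCD1LG2, STAT3 and IRF9 lie above the MONO points.

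CD276 (Entrez 80381, chr15:73683944-73714514, + strand) makes B7-H3, a relative of PD-L1 with inhibitory action on T cells. Its RPKM in MM.1S was 7.87, 6.94 and 7.33 in MONO, 6.37, 6.63 and 6.67 in TSW, and 6.09, 7.19 and 6.13 in CO. RPMI8226 had 3.32 and 3.21 in MONO, 2.98 and 3.58 in TSW, and 4.36 and 3.91 in CO. CD276 was not called in any of the 6 comparisons. Its difference with an adjusted p under 0.05 was in RPMI8226 CO vs MONO, at 0.27 ± 0.11 (0.03 to 0.50; adjusted p = 0.0432), under the fold threshold. In MM.1S CO vs MONO the log2 difference was -0.17 (adjusted p = 0.2).

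LGALS9 (Entrez 3965, chr17:27631188-27649560, + strand) makes galectin-9, a ligand of TIM-3 on T cells. In MM.1S it was at the floor, with 0 to 3 PETs in each library and 1, 5 and 2 PETs over MONO, TSW and CO, so it was not tested. The ratio of TSW to MONO there was 4.85 with a counting interval of 0.543 to 229, and no difference was detectable at this depth. In RPMI8226 the RPKM of LGALS9 was 0.124 and 0.542 in MONO, 3.73 and 3.53 in TSW, and 4.24 and 3.01 in CO. Both MONO libraries lay far under the others, with 5 and 26 PETs against 183 to 224, and TSW and CO overlapped. From 0.333 ± 0.296 (SD, n = 2) in MONO the mean was 3.63 ± 0.142 in TSW and 3.62 ± 0.871 in CO, ratios of 10.9 and 10.9. LGALS9 rose by 1.81 ± 0.17 on the log2 scale in TSW (1.45 to 2.18; adjusted p = 4.96e-06) and by 1.799 ± 0.17 in CO (1.43 to 2.17; adjusted p = 3.77e-06). With a pseudocount of 0.1 these were 3.30 and 3.28. Since the MONO libraries of LGALS9 differ several-fold, the ratios are imprecise. Reads shared with its near copies LGALS9B, LGALS9C and LGALS9DP, or with a same-strand gene of the GENCODE annotation that overlaps it by 294 exon bases, make its level uncertain.

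HAVCR2, the gene of TIM-3 itself, is 1 of the checkpoint receptors listed. Its RPKM in MM.1S was 3.11, 4.80 and 4.96 in MONO, 16.7, 15.8 and 13.8 in TSW, and 16.3, 14.8 and 16.9 in CO. RPMI8226 had 150 and 153 in MONO, 388 and 399 in TSW, and 368 and 371 in CO. Every library with stroma lay above every MONO library of its line. HAVCR2 rose by 1.65 ± 0.14 and 1.70 ± 0.14 in MM.1S (adjusted p = 1.46e-05 and 1.1e-05) and by 1.37 ± 0.06 and 1.28 ± 0.06 in RPMI8226 (3.35e-08 and 3.93e-08). It was the only tested gene among 9 checkpoint receptors in MM.1S, and 1 of 2 tested in RPMI8226, where the other was not called. Of all tested genes, 6.48% (TSW) and 7.13% (CO) were called higher in MM.1S, and 14.5% and 16.4% in RPMI8226.

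TNFRSF14 (Entrez 8764, chr1:2554234-2563829, + strand) makes HVEM, which restrains T cells through BTLA and can stimulate them through LIGHT. In MM.1S its RPKM was 5.91, 4.78 and 4.14 in MONO, 4.32, 4.75 and 4.19 in TSW, and 4.004, 4.02 and 4.19 in CO. These ranges overlapped, and the log2 differences of -0.12 ± 0.12 in TSW and -0.22 ± 0.12 in CO were not called (adjusted p = 0.446 and 0.168). In RPMI8226 its RPKM was 3.42 and 3.35 in MONO, 7.50 and 8.60 in TSW, and 8.25 and 8.26 in CO. All 4 libraries with stroma were above both MONO libraries. TNFRSF14 rose by 1.05 ± 0.09 in TSW (0.84 to 1.25; adjusted p = 4.56e-06), a ratio of 2.38, and by 1.08 ± 0.09 in CO (0.87 to 1.29; adjusted p = 2.59e-06), a ratio of 2.44. Whether TNFRSF14 responded differently in the lines was not tested. TNFRSF14-AS1 overlaps 826 exon bases of TNFRSF14 on the opposite strand, and since the sources do not say whether counting used strand, their reads cannot be told apart.

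Among 24 other T cell ligands, 15 were tested in MM.1S, where 3 were called higher and 1 lower in TSW vs MONO (6.48% and 4.16% of all tested genes) and 3 higher and 2 lower in CO vs MONO (7.13% and 4.65%). In RPMI8226, 13 were tested, and 10 were called higher and 0 lower in each comparison with MONO, beside 14.5% (TSW) and 16.4% (CO) of all tested genes called higher. This count is shaped by the filter, since PDCD1LG2 and CEACAM1 entered it through TSW and CO, while ICOSLG, with a mean of 1.08 RPKM in MONO, 0.538 in TSW and 0.273 in CO, was not tested there. The median log2 fold change was -0.11 and -0.24 in MM.1S, against 0.014 and 0.005 over all tested genes, and 0.99 and 1.04 in RPMI8226, against -0.08 and -0.09. HLA-E, which engages the inhibitory receptor NKG2A, had an RPKM of 42.6 and 43.1 in RPMI8226 MONO, 174 and 166 in TSW, and 198 and 186 in CO. It rose by 1.96 ± 0.07 and 2.14 ± 0.07 there (adjusted p = 4.75e-09 and 2.27e-09), and in MM.1S its log2 differences of -0.11 and -0.24 were not called. HLA-E has close relatives among HLA class I genes, so its reads may be shared.

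CEACAM1, a ligand of TIM-3 and an inhibitory receptor, rose by 0.70 and 0.92 in MM.1S (TSW and CO; adjusted p = 0.00201 and 0.000318) and by 1.32 and 1.63 in RPMI8226 (1.6e-06 and 2.52e-07), where it passed the filter only through TSW and CO. CD86, which stimulates T cells through CD28 and also binds the checkpoint CTLA-4, had an RPKM of 1.84 and 1.41 in RPMI8226 MONO, 4.67 and 5.74 in TSW, and 7.75 and 9.46 in CO. The conditions did not overlap, and CD86 was called higher in TSW vs MONO (1.24 ± 0.13), in CO vs MONO (1.87 ± 0.13) and in CO vs TSW (0.63 ± 0.13; adjusted p = 0.00659). In MM.1S, CD86 was at 8.20 to 8.76 RPKM in MONO and lower, at 5.53 to 6.78, in all libraries with stroma, with log2 differences of -0.45 and -0.36 under the fold threshold (adjusted p = 0.00432 and 0.0125). The difference of CD86 between the lines was not tested. ICOSLG, the ligand of the T cell costimulator ICOS, fell by 0.70 and 0.78 in MM.1S TSW and CO (adjusted p = 0.00082 and 0.000394). Thus ligands of both inhibitory and stimulatory action were among those called.

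PVR (Entrez 5817, chr19:44643910-44666162, + strand) makes CD155, which activates NK cells through DNAM-1 and restrains NK and T cells through TIGIT. In MM.1S its RPKM was 9.61, 8.38 and 6.91 in MONO, 10.8, 10.2 and 11.2 in TSW, and 9.62, 9.47 and 9.89 in CO. The TSW libraries lay above the MONO libraries, CO overlapped MONO, and the log2 difference of 0.34 ± 0.11 in TSW (0.10 to 0.59; adjusted p = 0.0428) was under the fold threshold. In RPMI8226, PVR stood between 2.94 and 4.08 RPKM in all 6 libraries, with log2 differences from MONO of 0.21 in TSW and -0.07 in CO (adjusted p = 0.105 and 0.583). Overlaps with CEACAM19 and with an unnamed same-strand transcript (121 and 2028 exon bases) make the level of PVR uncertain. Among 5 nectins and relatives, 3 were tested in each line, and none was called in MM.1S with 0 of 3 at an unadjusted p under 0.05 in TSW vs MONO and 1 of 3 in CO vs MONO by limma, beside 40.3% and 44% of all tested genes. In RPMI8226 NECTIN1 fell by 1.06 and 0.93 in TSW and CO (adjusted p = 8.36e-06 and 1.59e-05), and CADM1, an adhesion protein seen by CRTAM on NK and T cells, rose by 1.39 and 1.31 (7.07e-07 and 7.51e-07).

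MICA (Entrez 100507436, chr6:31400711-31415315, + strand) and MICB (Entrez 4277, chr6:31494918-31511124, + strand) make ligands of NKG2D, an activating receptor of NK cells. In MM.1S the RPKM of MICB was 17.4, 21.1 and 19.6 in MONO, 28.4, 27.3 and 26.9 in TSW, and 27.3, 26.0 and 22.6 in CO. The RPMI8226 values were 12.5 and 11.9 in MONO, 15.9 and 17.3 in TSW, and 16.8 and 14.3 in CO. All 10 libraries with stroma lay above the MONO libraries of their line. MICB was not called, since its differences, with adjusted p under 0.05, were below the fold threshold. They were 0.49 ± 0.10 in MM.1S TSW (adjusted p = 0.00521), 0.37 ± 0.10 in CO (0.0192), 0.41 ± 0.09 in RPMI8226 TSW (0.00285) and 0.32 ± 0.09 in CO (0.0108).

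MICA was lower than MICB in both lines. Its RPKM in MM.1S was 3.10, 2.999 and 2.23 in MONO, 2.84, 3.73 and 3.08 in TSW, and 2.69, 2.77 and 2.26 in CO, ranges that overlapped between MONO and the others. RPMI8226 had 5.08 and 3.89 in MONO, 5.65 and 7.54 in TSW, and 5.55 and 6.04 in CO, with MONO below the others. The log2 difference of MICA in RPMI8226 TSW was 0.47 ± 0.14 (0.16 to 0.78; adjusted p = 0.0126), not called, and in CO 0.32 ± 0.14 (0.01 to 0.63; adjusted p = 0.0626). With libraries corrected by loess for base composition and length it was called in both, at 0.59 and 0.63, where the median of all tested genes in CO vs MONO also moved, from -0.09 to 0.01. The TSW difference was also called without MONO 1 (0.62) or without TSW 1 (0.65) of RPMI8226. MICA and MICB are alike in sequence and both overlap short antisense or long noncoding transcripts (94 and 62 exon bases in MICA, 55 in MICB), so their levels are uncertain.

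Of 14 other NK ligands and shedding genes, 7 were tested in MM.1S, with 2 called higher and 0 lower in each comparison with MONO, beside 10.6% (TSW) and 11.8% (CO) of all tested genes called. In RPMI8226 8 were tested, with 2 higher and 0 lower in TSW vs MONO and 2 higher and 2 lower in CO vs MONO, beside 32.5% and 39.3% of all tested genes called. ADAM9, a surface protease reported to shed MICA, had an RPKM of 8.73, 17.2 and 19.3 in MM.1S MONO and 32.0 to 34.9 in TSW and CO. It rose by 1.20 ± 0.21 and 1.13 ± 0.21 in MM.1S (adjusted p = 0.00228 and 0.00314) and by 0.66 ± 0.09 and 0.77 ± 0.09 in RPMI8226 (0.000112 and 2.86e-05). CLEC2B, which makes AICL, a ligand of the activating receptor NKp80, rose by 0.97 and 1.17 in MM.1S (adjusted p = 0.0321 and 0.0131) and by 2.07 and 2.74 in RPMI8226 (3.25e-07 and 3.6e-08). Its RPKM in MM.1S was 3.92, 1.13 and 1.11 in MONO against 3.96 to 7.53 in the other libraries, so MONO 1, which stood apart, lay near TSW. NCR3LG1, the B7-H6 ligand of NKp30, was at 7.24 and 7.79 RPKM in RPMI8226 CO, below its MONO libraries, and fell by 0.89 (adjusted p = 1.53e-05). Shed protein was not measured.

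CD47 (Entrez 961, chr3:108043091-108091031, - strand) signals to SIRP-alpha on macrophages. In the libraries of MM.1S it had an RPKM of 30.1, 29.7 and 34.5 in MONO, 32.8, 34.8 and 36.7 in TSW, and 39.4, 34.1 and 39.6 in CO. For RPMI8226 the values were 32.4 and 28.4 in MONO, 39.5 and 29.8 in TSW, and 40.9 and 40.0 in CO. The ranges overlapped, except that both RPMI8226 CO libraries lay above all others of that line. CD47 was not called, with a log2 difference of 0.26 ± 0.10 in MM.1S CO vs MONO (adjusted p = 0.0662) and of 0.40 ± 0.12 in RPMI8226 CO vs MONO (0.14 to 0.67; adjusted p = 0.0104), the latter under the fold threshold.

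CD55 (Entrez 1604, chr1:207321678-207360966, + strand) makes decay-accelerating factor, which takes apart the complement convertases. MM.1S had an RPKM of 8.20, 8.88 and 9.49 in MONO, 7.25, 7.57 and 8.40 in TSW, and 8.39, 7.98 and 7.10 in CO. These overlapped, and the log2 differences from MONO were -0.17 and -0.16 (adjusted p = 0.222 and 0.242). In RPMI8226 the RPKM of CD55 was 5.37 and 5.89 in MONO, 10.3 and 8.39 in TSW, and 8.26 and 8.31 in CO. All 4 libraries with stroma were above both MONO libraries. CD55 rose by 0.64 ± 0.11 in TSW (0.41 to 0.87; adjusted p = 0.00035), a ratio of 1.66, and its difference of 0.49 ± 0.11 in CO (0.25 to 0.72; adjusted p = 0.00179) was under the fold threshold. The call in TSW was lost without MONO 1 (0.58, adjusted p = 0.00425) or without TSW 1 (0.50, adjusted p = 0.00272) of RPMI8226, where the difference fell under the fold threshold.

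CD59 (Entrez 966, chr11:33703010-33736479, - strand) makes protectin, which stops the assembly of the membrane attack complex. In MM.1S its RPKM was 82.8, 83.2 and 78.7 in MONO, 55.1, 52.2 and 51.2 in TSW, and 49.9, 53.7 and 58.7 in CO. All 6 libraries with stroma lay below all 3 MONO libraries, and TSW and CO overlapped. From 81.6 ± 2.53 in MONO (SD, n = 3) the mean was 52.8 ± 2.03 in TSW and 54.1 ± 4.43 in CO, ratios of 0.647 and 0.663. CD59 fell by 0.62 on the log2 scale in TSW (standard error 0.09; interval -0.81 to -0.43; adjusted p = 0.000499) and by 0.59 in CO (standard error 0.09; interval -0.78 to -0.40; adjusted p = 0.000703). The CO difference lies at the fold threshold and was not called without MONO 1 (-0.58), MONO 2 (-0.57), CO 1 (-0.53) or CO 2 (-0.58) of MM.1S, with adjusted p from 0.000413 to 0.00406. Neither difference of CD59 was called after quantile normalization (-0.55 and -0.49).

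In RPMI8226, the RPKM of CD59 was 29.17 and 29.16 in MONO, 22.0 and 25.2 in TSW, and 21.5 and 23.8 in CO. The libraries with stroma were again below MONO, with log2 differences of -0.30 ± 0.09 (adjusted p = 0.0109) and -0.35 ± 0.09 (adjusted p = 0.00409) that were under the fold threshold. CD59 shares 629 exon bases with a same-strand gene, which makes its level uncertain. Of the complement inhibitors among the members, then, CD59 was lower beside stroma in MM.1S and CD55 higher in TSW of RPMI8226.

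Of 7 other complement regulators, 3 were tested in MM.1S, and all 3 were called higher in both comparisons with MONO (6.48% and 7.13% of all tested genes). In RPMI8226, 4 were tested, and 2 were called higher in both (14.5% and 16.4% of all tested genes). The filter also shapes these small counts. CFI, which makes factor I, a protease that cuts C3b and C4b, had 0 PETs in both RPMI8226 MONO libraries, 22.0 and 20.1 RPKM in TSW, and 40.9 and 38.4 in CO. It was at least 486-fold higher in TSW and at least 913-fold higher in CO. CFI passed the filter through TSW and CO, where it is high, and such bounds cover counting error only. CD46, a surface cofactor of factor I, rose by 0.81 ± 0.13 in TSW and 0.81 ± 0.13 in CO of MM.1S (adjusted p = 0.00106 and 0.00106). Between CO and TSW of RPMI8226, CFI (0.88 ± 0.09, adjusted p = 0.000153) was called higher in CO.

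**Figure D4:**
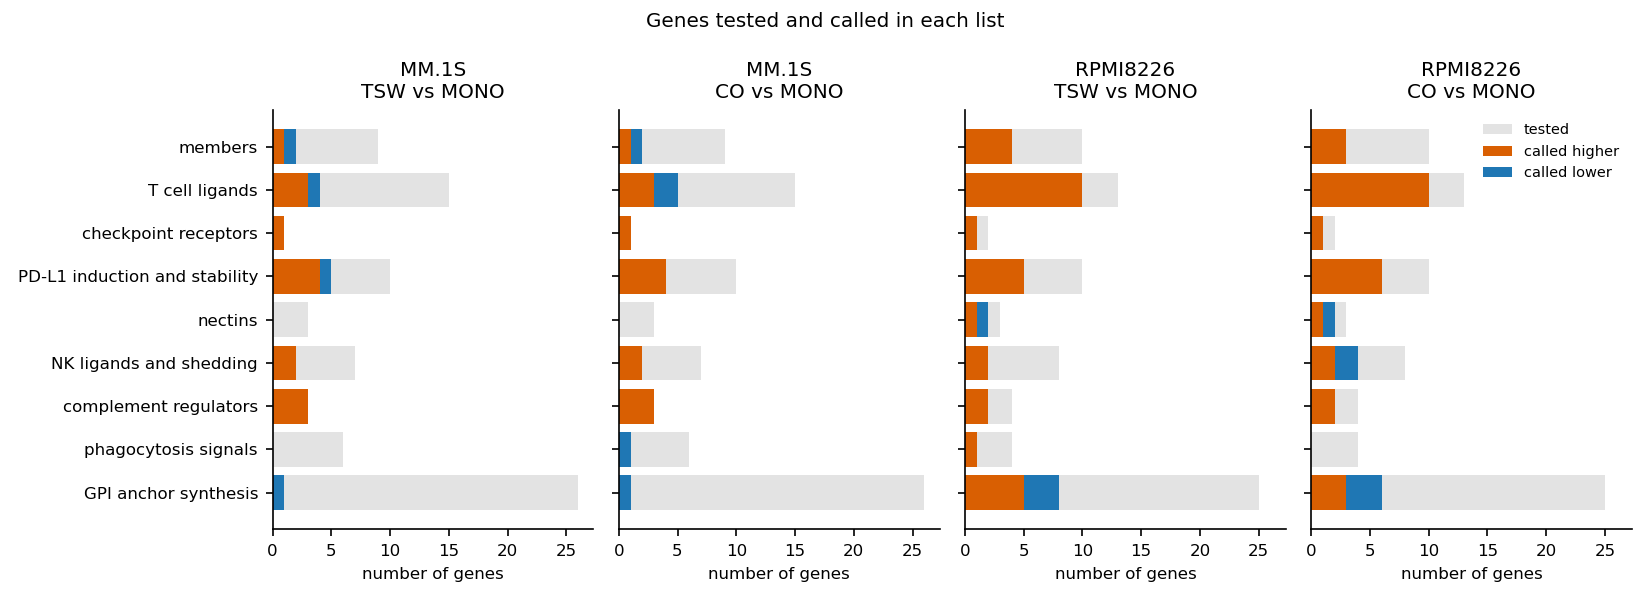
Number of genes (horizontal axis) tested (grey), called higher (orange) and called lower (blue) among the members and in 8 wider lists, for TSW vs MONO and CO vs MONO in each line. Of the T cell ligands, 10 of 13 are called higher in each RPMI8226 comparison, against 3 of 15 in each MM.1S comparison. These counts need not hold the same genes, and the difference between lines was not tested.

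Between CO and TSW, no member was called by limma in either line: 0 of 9 in MM.1S, where 0.414% of tested genes were called (0.433% by adjusted p alone), and 0 of 10 in RPMI8226, where 4.29% were called (27.6% by adjusted p alone). At an unadjusted p under 0.05, it was 0 of 9 in MM.1S, where 4.43% of all tested genes had such a p, and 3 of 10 in RPMI8226, where 40.4% had, and voom called 0 in each. The 3 were CD274 (0.28), CD276 (0.26) and PVR (-0.28). The 95% intervals of CO vs TSW in MM.1S were -0.16 to 0.31 for CD274 and -0.16 to 0.22 for CD59. In RPMI8226 they were -0.38 to 0.35 for LGALS9, -0.17 to 0.24 for TNFRSF14 and -0.39 to 0.08 for CD55. Each of these intervals holds 0 and also differences in both directions, so they do not show that contact had no effect on a member. In RPMI8226 the intervals of the 3 named above left out 0. They were 0.04 to 0.53 for CD274, 0.03 to 0.50 for CD276 and -0.52 to -0.04 for PVR, without adjustment for the number of genes.

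Stromal RNA in the CO libraries was read from 40 stromal marker genes. In MM.1S, 18 to 23 of the 40 had a PET in MONO libraries, 18 to 20 in TSW and 36 to 39 in CO. Their summed RPKM was 32.7 to 36.5 in MONO, 20.9 to 21.8 in TSW and 175 to 207 in CO, where MMP1, a collagenase, was the most abundant at 41.0 to 46.9. In RPMI8226, 16 or 17 had a PET in MONO, 18 or 19 in TSW and 36 or 37 in CO. There the sum was led by FN1, which the line itself makes, with 3990 and 4310 RPKM in MONO, 1678 and 1962 in TSW, and 2007 and 2169 in CO. Without FN1, the sum was 35.3 and 35.6 in MONO, 25.5 and 25.7 in TSW, and 127 and 172 in CO. CAV1, which both lines also make, then led in MONO and TSW, with 28.1 and 28.6 RPKM in RPMI8226 MONO and 17.4 and 17.7 in TSW. Without FN1 and CAV1, both left out after their values were seen, the sum in RPMI8226 was 7.24 and 6.98 in MONO, 8.10 and 7.93 in TSW, and 106 and 153 in CO. In MM.1S it was 13.7 to 15.3 in MONO, 7.94 to 9.08 in TSW and 147 to 175 in CO.

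MMP1, COL1A2 and COL3A1 had 0 PETs in every MONO and TSW library of both lines, and POSTN had 0 RPKM in all 15. Other markers were present in TSW: COL5A1 stood at 1.01 to 1.26 RPKM in MM.1S TSW against 0.629 to 0.744 in MONO (log2 difference 0.34, adjusted p = 0.0206, not called), and LOX rose by 0.675 in RPMI8226 TSW (adjusted p = 0.000503), having passed the filter through CO. These markers were picked after their values were seen, and others went either way in TSW vs MONO. CDH2 (-0.83) and CAV1 (-0.725) of MM.1S, and FN1 (-1.19) and CAV1 (-0.66) of RPMI8226, were called lower. Under the fold threshold, with adjusted p under 0.05, SPARC (-0.54) and THBS1 (-0.58) of MM.1S were lower and TAGLN of RPMI8226 (0.545) was higher. THY1, the CD90 of the sort, was at 0.453 to 0.570 RPKM in MM.1S CO, 0.0767 and 0.111 in RPMI8226 CO, and at or below 0.0669 in the MONO and TSW libraries. The part of stromal RNA in the difference of a member between conditions was not tested. CD38, used to gate the cells, had an RPKM of 16.02 and 15.97 in RPMI8226 MONO, 49.6 and 42.0 in TSW, and 52.2 and 53.7 in CO. It rose by 1.46 ± 0.09 and 1.67 ± 0.09 there (adjusted p = 2.21e-07 and 6.1e-08), while in MM.1S it stood between 38.4 and 65.0 in all 9 libraries and was not called.

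**Figure D5:**
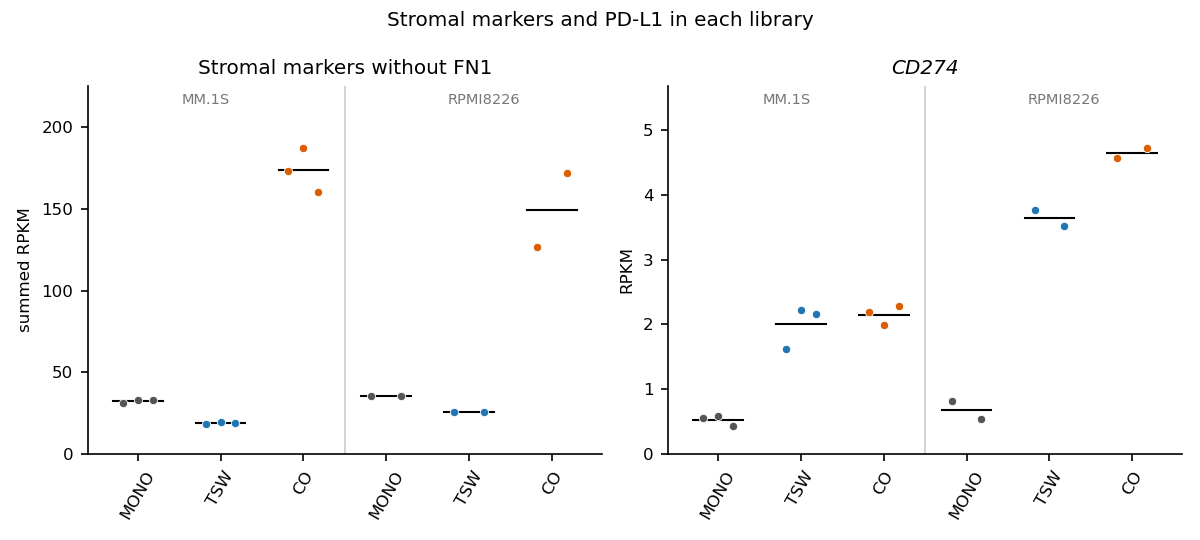
Summed RPKM of the stromal markers without FN1 (left) and RPKM of CD274 (right) in each library, with bars at the means of MONO, TSW and CO. The stromal sum in TSW (18.6 to 25.7) lies below that in MONO (31.1 to 35.6), and that in CO (127 to 188) above both. CAV1 leads the sum in MONO and TSW. Without CAV1 the RPMI8226 sum is higher in TSW (8.10 and 7.93) than in MONO (7.24 and 6.98). CD274 in TSW (1.62 to 3.77) lies above MONO.

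Plasma cell markers were present in both lines as their label says. SDC1, the CD138 of plasma cells, ranged from 143 to 184 RPKM in MM.1S and from 70.4 to 98.7 in RPMI8226, and MZB1 from 402 to 682 and from 523 to 1133. SLAMF7, an NK and macrophage ligand used as a plasma cell marker, was at 64.7 to 99.0 in MM.1S and at or below 0.104 in RPMI8226. SLAMF7 was thus close to absent in RPMI8226, while IRF4, PRDM1, XBP1, JCHAIN and POU2AF1 were above 7 RPKM in all libraries of both lines.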

How the data were processed

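RNA-Seq tables of 2 myeloma lines in 3 culture conditions were used, with groups and repeats taken from the labels. Per the labels and the study's methods, the authors aligned read pairs to hg38 with Subread, counted them on RefSeq genes with featureCounts and computed RPKM; the deposited values are log2 of RPKM + 1, raised by 0.0001, which was subtracted. The design had assumed plain RPKM. The authors tested counts with edgeR, which was not used here: the design set limma on the log2 values, with voom on recovered counts as an alternative. limma 3.58.1 (R 4.3.3; lmFit, eBayes with trend) was fitted per line with all 3 conditions and no covariate on genes averaging an RPKM of 1 or more, with Benjamini-Hochberg adjustment over all of them; every adjusted p comes from it or, where an alternative or left-out library is named, from that fit. A gene was called when its adjusted p was under 0.05 and its fold change exceeded 1.5.

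PETs were recovered from the spacing of values. All 218078 values above 0 (100%) lay within 0.05 of a whole count, with an exon length chosen to make them whole. Sums lay within 0.0017% of the library totals, which were themselves recovered from the spacing. For MM.1S MONO 2 the recovered depth is well above that in the study's library table, which prints the same number for RPMI8226 MONO 2. The other recovered depths lie slightly under those printed. Recovered PETs served for depth, floors (3 PETs), counting intervals and voom; these cover counting error only. Promoters are from RefSeq (GRCh38.p14), overlaps from GENCODE. Tables and figures were made in Python 3.11.15 with numpy 2.4.6, pandas 2.3.3, scipy 1.17.1 and matplotlib 3.10.9. The procedure was tested on simulated data.

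All members are named. From 8 wider lists (109 genes: T cell ligands, checkpoint receptors, PD-L1 induction and stability, nectins, NK ligands and shedding, complement regulators, phagocytosis signals, GPI anchor synthesis), up to 4 called genes each may be named, favouring large changes; some of them are not reported here. Genes like CD274 are the 3 with the smallest root mean square difference over 4 log2 fold changes. Members and lists were chosen with earlier results of these data known. Alternatives were a pseudocount of 0.1, no filter, a filter at 5 RPKM, scaling by median ratios, quantile normalization, a replicate block, only the conditions compared, no trend, no fold threshold, voom, a loess correction (98.81% and 98.84% of tested genes had base composition and length) and leaving out each library. The study's removal of stromal and closed-promoter genes was not repeated, since its lists were not used here.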

Additional observations from a re-analysis of the deposited data

Results flagged for a closer look

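For 4 members, on the log2(RPKM + 1) scale, every library of a condition with stroma lay above the MONO mean (for CO vs TSW, the TSW mean) in one line and below it in the other. The log2 fold changes of TNFRSF14 were -0.124 in MM.1S and 1.045 in RPMI8226 for TSW vs MONO, -0.218 and 1.079 for CO vs MONO, and -0.095 and 0.034 for CO vs TSW. For CD55 they were -0.174 in MM.1S and 0.639 in RPMI8226 for TSW vs MONO, and -0.161 and 0.488 for CO vs MONO. CD276 had -0.168 in MM.1S and 0.265 in RPMI8226 for CO vs MONO, and PVR had 0.207 and -0.069. These 4 are among 9 members tested in both lines. The share of all genes with such a pattern was not counted, so the number describes these members only. None of these differences between lines was tested. Only TNFRSF14 (TSW and CO) and CD55 (TSW) of RPMI8226 were called among them.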

How the results depend on the processing

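Of 1029 member values under alternatives, 975 kept their direction and side of the threshold, 8 lost a call, 15 gained one (11 of them by dropping the fold threshold) and 31 changed sign, 0 of these among the 11 called values. CD274, LGALS9 and TNFRSF14 kept their calls in every alternative that tested them, which include dropping the fold threshold, where no call can be lost. CD59 and CD55 lost theirs as given with their values, and the cause was not tested. An RPKM of at least 5 leaves CD274 and other low members untested. In MM.1S, 1 member was then called in TSW vs MONO, beside 740 of all genes, and 1 in CO vs MONO, beside 822. In RPMI8226, 2 were called in TSW vs MONO, beside 2508 of all genes, and 1 in CO vs MONO, beside 3088. The numbers tested at that filter are not given here. Quantile normalization gave 1 and 1 of 9 members in MM.1S (TSW and CO vs MONO), beside 1032 and 1161 of 10153 tested genes. Adjusted p alone gave 4 members in MM.1S TSW vs MONO, 7 in RPMI8226 TSW vs MONO and 8 in RPMI8226 CO vs MONO, and 2769, 3175, 6921, 7422 and (RPMI8226 CO vs TSW) 2849 genes. With a library left out, members called ranged from 1 to 2 in MM.1S CO vs MONO, and stayed at 2, 4 and 3 in the other comparisons with MONO. The 4 of RPMI8226 TSW vs MONO were not the same genes throughout, since CD55 lost and MICA gained a call without MONO 1 and without TSW 1. CO vs TSW held 0 called members under all alternatives, and its genes called were 134 without a filter and 7 at an RPKM of at least 5 in MM.1S (42 as reported), and in RPMI8226 672 by voom, 284 by loess and 319 to 718 with a library left out (718 without TSW 1), beside 443. The share of higher calls in RPMI8226 moved from 44.7% to 54.1% by loess and 52.6% by median-of-ratios scaling in TSW vs MONO, from 41.7% to 52.6% by loess and 50.9% by median-of-ratios scaling in CO vs MONO, and from 44.2% to 59.0% by quantile normalization and 68.3% by loess in CO vs TSW. In RPMI8226, leaving out a library leaves 1 in its condition, assumed to vary like the others.

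Values that changed sign were all uncalled. By loess, in MM.1S they were CD47 TSW vs MONO -0.019, MICA CO vs MONO 0.092, and for CO vs TSW CD276 0.039, CD55 -0.030 and CD59 -0.002; in RPMI8226 PVR CO vs MONO 0.050, and for CO vs TSW LGALS9 0.129, MICA 0.037 and MICB 0.022. Median-of-ratios scaling gave PVR CO vs MONO 0.015 and LGALS9 CO vs TSW 0.008, quantile normalization CD59 CO vs TSW 0.006, and voom CD276 TSW vs MONO -0.001, all in RPMI8226. With a library left out, MM.1S CO vs TSW spanned -0.021 to 0.129 for CD274, -0.088 to 0.016 for CD276, -0.034 to 0.073 for CD55 and -0.028 to 0.087 for CD59. RPMI8226 TSW vs MONO spanned -0.024 to 0.371 for CD47 and -0.100 to 0.103 for CD276, and CO vs MONO -0.181 to 0.044 for PVR. RPMI8226 CO vs TSW spanned -0.208 to 0.178 for LGALS9, -0.054 to 0.122 for TNFRSF14, -0.331 to 0.030 for MICA, -0.204 to 0.018 for MICB and -0.146 to 0.043 for CD59.

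Same-numbered libraries deviated from their condition means with correlations of -0.38 to 0.286 in MM.1S and 0.164 to 0.271 in RPMI8226, which has 2 pairs, and nothing beyond a shared number pairs them. With a replicate block, 1081, 1209 and 40 genes were called in MM.1S (TSW vs MONO, CO vs MONO, CO vs TSW), with 2, 2 and 0 members. In RPMI8226 the block gave 3353, 4059 and 448 genes, with 4, 3 and 0 members, so no count moved by over 1.5 times. In MM.1S, 0 to 3 PETs per library limit LGALS9.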

Other observations

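CD55 and CD59 are held in the membrane by a glycosylphosphatidylinositol (GPI) anchor, so genes of its synthesis were read as a list. Of 29 such genes, 26 were tested in MM.1S, where 0 were called higher and 1 lower in TSW vs MONO (PIGW) and 0 higher and 1 lower in CO vs MONO (PIGV), beside 6.48% and 4.16%, and 7.13% and 4.65%, of all tested genes. By limma at an unadjusted p under 0.05 it was 11 and 10 of 26, beside 40.3% and 44% of all tested genes. In RPMI8226, 25 were tested, with 5 higher and 3 lower in TSW vs MONO, and 3 higher and 3 lower in CO vs MONO, beside 32.5% and 39.3% of all tested genes called. PIGW, which acylates the inositol of the anchor precursor, had an RPKM of 18.8 and 17.8 in RPMI8226 MONO, 5.24 and 3.80 in TSW, and 4.58 and 4.02 in CO. It fell by 1.82 and 1.87 there (adjusted p = 6.46e-07 and 3.68e-07), and by 0.65 in MM.1S TSW (0.00064). PIGS, PIGT and PIGK, parts of the transamidase that joins the anchor to proteins, were the genes called higher in both RPMI8226 comparisons, with log2 fold changes from 0.81 to 0.95. Of its other parts, GPAA1 was called higher in TSW (0.60, adjusted p = 0.000117) and not in CO, and PIGU was lower with differences of -0.515 and -0.45 under the fold threshold (adjusted p = 0.000239 and 0.000495). The median log2 fold change of the list was -0.10 and -0.15 in MM.1S (TSW and CO) and -0.03 and -0.05 in RPMI8226.

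Among 10 phagocytosis genes, 6 were tested in MM.1S and 4 in RPMI8226. In MM.1S TSW vs MONO 0 were called, beside 10.6% of all tested genes. At an unadjusted p under 0.05 by limma it was 4 of 6 there, beside 40.3% of all tested genes. In MM.1S CO vs MONO 1 was called lower, beside 4.65% of all tested genes. That gene was QPCT, a glutaminyl cyclase whose relative QPCTL modifies CD47 for binding to SIRP-alpha, with an RPKM of 118, 134 and 124 in MONO and 70.0, 82.6 and 67.6 in CO. It fell by 0.77 (adjusted p = 0.000318). QPCTL was the gene called higher in RPMI8226 TSW vs MONO (0.59, adjusted p = 0.000192), beside 14.5% of all tested genes. None of the 4 was called in CO vs MONO there, beside 39.3% of all tested genes. At an unadjusted p under 0.05 by limma it was 2 of 4, beside 73.7% of all tested genes.

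TNFRSF17, the plasma cell receptor BCMA, had an RPKM of 216, 145 and 157 in MM.1S MONO, 47.4 to 49.2 in TSW and 34.1 to 42.7 in CO. In RPMI8226 it was 73.0 and 68.8 in MONO, 6.40 and 4.43 in TSW, and 4.13 and 3.96 in CO. Libraries with stroma lay far below MONO in both lines, and TNFRSF17 was called lower at log2 fold changes of -1.797 and -2.14 in MM.1S (adjusted p = 7.19e-06 and 1.71e-06) and -3.50 and -3.83 in RPMI8226 (8.12e-09 and 3.9e-09). JCHAIN fell by 0.85 and 0.92 in MM.1S and rose by 0.80 and 1.02 in RPMI8226, a difference between lines that was not tested. Other plasma cell markers moved otherwise. PRDM1 and XBP1 were called higher in every comparison with MONO, by 0.68 to 1.24. POU2AF1 was called higher except in MM.1S CO vs MONO (0.43), and MZB1 was called higher in RPMI8226 (1.06 and 0.76) and not called in MM.1S. IRF4 was called lower in RPMI8226 (-0.94 and -0.93) and not called in MM.1S. SDC1 was not called in these comparisons.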
